A study of Mus musculus with 12 samples.

Results

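The receptors of the common gamma-chain cytokines were followed at the mRNA level in mouse CD4+ T cells, through 7 genes chosen by symbol: Il2rg, Il2ra, Il2rb, Il4ra, Il7r, Il21r, and Il9r. Of these, 6 were among the 11077 genes listed for the comparison of Th17 with Th0 cells and the 11056 listed for iTreg with Th0 cells. Il9r, which encodes the IL9 receptor alpha chain, was in neither table. The authors kept genes above 1 CPM in at least 4 samples, and the absence of Il9r says only that it did not appear among the genes kept. All 6 listed genes had at least 3.22 FPKM (fragments scaled to the length of the transcript and the size of the library) in every library, so none of them entered the tests through a single group.

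RNA from 12 libraries had been sequenced, 4 for each of Th0, Th17, and iTreg cells. All 3 groups started from naive CD4+CD62L+ T cells of spleens of C57BL/6 mice aged 8 to 10 weeks, and all were activated for 72 h with plate-bound anti-CD3 and anti-CD28, at 1 µg/ml each. Th0 cells received no polarizing cytokine. To induce Th17 cells, IL6 (30 ng/ml), TGFβ1 (5 ng/ml), anti-IL4, and anti-IFNγ (10 µg/ml of each antibody) were added, and to induce iTreg cells IL2 and TGFβ1 (10 ng/ml each by the sample labels, while the study's methods give a higher amount of TGFβ1). IL2 was thus added to the iTreg cultures alone, and its effect cannot be told apart from that of the rest of the iTreg mixture. These are polarized cultures measured in bulk, in which fewer cells expressing a gene and less RNA per cell cannot be told apart. Libraries are named by their column headings, which end in _1 for Th0, _5 for Th17, and _4 for iTreg cells. Each group has a heading beginning with M22, with M29, with M42, and with M43. No label or method explains what these beginnings stand for.

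The gamma-chain family of receptors is built from a shared signaling chain, encoded by Il2rg, and private chains that decide which cytokine is bound. IL2 is held by the chains of Il2ra (CD25), Il2rb (CD122), and Il2rg together, with CD25 raising the affinity, while Il4ra, Il7r, Il21r, and Il9r each encode the private chain for the cytokine in their name. Receptor engagement activates JAK1 and JAK3, which phosphorylate STAT proteins, mainly STAT5 for IL2, IL7, and IL9, STAT6 for IL4, and STAT3 for IL21. In T cells IL2 and IL7 are known for supporting growth and survival, and regulatory T cells are known for high CD25.

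Il2rg lies on chromosome X from 101264378 to 101268255 (minus strand), Il2ra on chromosome 2 from 11642807 to 11693193 (plus strand), and Il2rb on chromosome 15 from 78479256 to 78495271 (minus strand), in GRCm38 with GENCODE annotation. Il7r is on chromosome 15 from 9505788 to 9530176 (minus strand) and Il9r on chromosome 11 from 32187541 to 32200279 (minus strand). Il4ra (chromosome 7, 125552120 to 125579474) and Il21r (chromosome 7, 125603429 to 125633570) are neighbors on the plus strand, with 23954 bases and no annotated gene between them. Another gene on the same strand, Gm20489, covers 30.5% of the exonic bases of Il2rg, and an antisense gene, Gm44876, covers 9.51% of those of Il4ra. Reads were counted without the strand, and reads in these shared bases are uncertain.

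The sequences just before the start of the gene are shown for the shared chain, for the IL2 receptor alpha chain, and for the neighbors Il4ra and Il21r. They come from RefSeq (GRCm38.p6), read 5′ to 3′ on the strand of the gene, and end at the base before the first transcribed base. Of the 7 genes, 6 had an entry in this table and Il2rb did not. Capitals mark matches to a search on both strands for 6 motifs: TTCNNNGAA (STAT), TGANTCA (AP-1), GTAAACA (FOXO), GGGA and CCC with any 3 bases between (NF-kappaB), TGTGGT (RUNX), and AGGAAG (ETS).
Il2rg, chrX:101268256-101268505, minus strand: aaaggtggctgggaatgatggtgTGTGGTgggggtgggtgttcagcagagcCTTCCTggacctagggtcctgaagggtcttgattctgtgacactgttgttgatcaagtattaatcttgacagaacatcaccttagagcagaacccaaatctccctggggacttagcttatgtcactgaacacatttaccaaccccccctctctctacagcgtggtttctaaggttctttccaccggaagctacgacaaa
Il2ra, chr2:11642542-11642791, plus strand: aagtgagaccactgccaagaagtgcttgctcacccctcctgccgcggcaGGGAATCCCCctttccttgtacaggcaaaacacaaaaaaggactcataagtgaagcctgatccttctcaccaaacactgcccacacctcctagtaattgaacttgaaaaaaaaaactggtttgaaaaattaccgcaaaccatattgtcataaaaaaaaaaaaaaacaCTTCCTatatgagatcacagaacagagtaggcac
Il4ra, chr7:125552021-125552119, plus strand: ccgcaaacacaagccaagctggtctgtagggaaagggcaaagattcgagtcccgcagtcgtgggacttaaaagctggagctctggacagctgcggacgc
Il21r, chr7:125603179-125603428, plus strand: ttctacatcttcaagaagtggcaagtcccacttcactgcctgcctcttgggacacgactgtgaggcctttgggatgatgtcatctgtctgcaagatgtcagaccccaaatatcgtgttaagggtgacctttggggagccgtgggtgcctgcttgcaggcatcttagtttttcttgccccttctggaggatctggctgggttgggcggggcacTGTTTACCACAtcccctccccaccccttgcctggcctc

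The Il2ra window held an NF-kappaB match beginning 201 bases before the start and an ETS match 34 bases before it. That of Il2rg held a RUNX match at 227 bases and an ETS match at 199 bases before the start. In the Il21r window a FOXO match (38 bases before the start) overlapped a RUNX match (33 bases before it). The 99 bases shown for Il4ra, cut where the annotated gene begins, held none of the 6 motifs. Among 27025 mouse promoters of the RefSeq table, each over 250 bases, 29.2% held the ETS letters, 14.2% RUNX, 7.18% STAT, 6.87% AP-1, 4.65% NF-kappaB, and 3.09% FOXO. The Il4ra window is shorter and cannot be set beside these shares. A match is a description of the sequence only.

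Each comparison was made within its own table with limma on log2(FPKM + 1) (on this scale, changes of genes with little FPKM come out smaller than they are). A gene was called at an adjusted p (Benjamini-Hochberg, over all genes tested in the table) under 0.05. In Th17 cells, 4 of the 6 listed receptor genes were called, all of them higher than in Th0 cells (Il2ra, Il2rb, Il4ra, and Il7r), where 19.3% of all 10269 tested genes were called in either direction and 10.6% as higher. As lower, 8.69% of all genes were called and none of the 6. There was no overlap between Th17 and Th0 FPKM for the same 4 genes, against 23.8% of all genes in either direction, 13.2% as higher, and 10.6% as lower. In iTreg cells, 2 of 6 were called (Il2ra and Il2rb, both higher), against 16.6% of all 10208 tested genes in either direction, 8.36% as higher, and 8.21% as lower. Both were also without overlap, against 22.8% of all genes in either direction, 11.7% as higher, and 11% as lower. The median log2 fold change of the 6 genes was 1.31 in Th17 and 0.66 in iTreg cells, beside −0.00071 and 0.011 over all tested genes. The comparisons share their Th0 libraries and are therefore not independent.

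**Figure D1:**
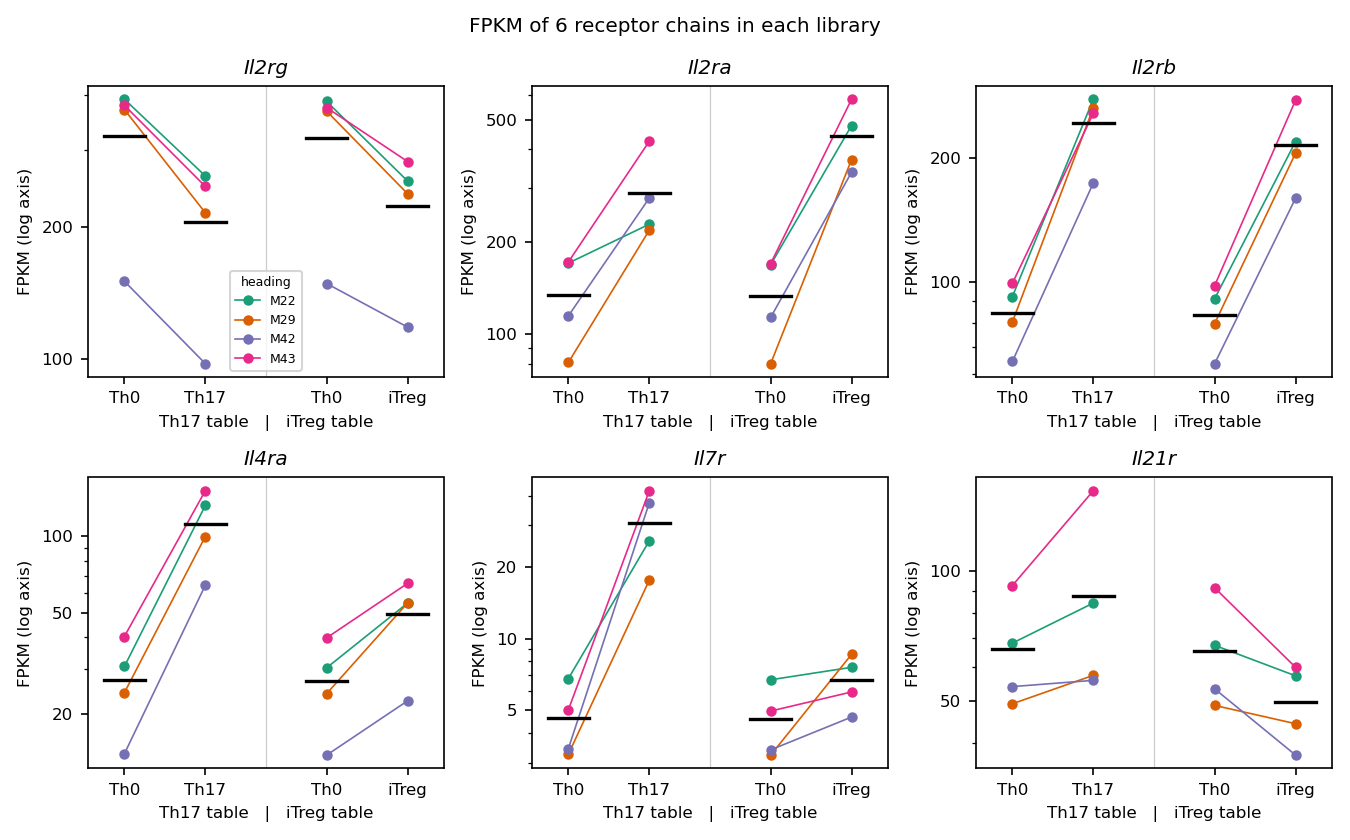
FPKM (log axis) of the 6 listed receptor genes in each library, with the Th17 table on the left and the iTreg table on the right of each panel, points colored and joined by the beginning of the column heading, and horizontal bars at the group means. Il2rg was lower and Il2ra, Il2rb, and Il4ra were higher than in the Th0 library of the same heading in 4 of 4 cases in each table, and Il7r was 3.81 to 10.9 times its Th0 value on the Th17 side and 1.13 to 2.66 times on the iTreg side.

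Libraries sharing a heading beginning deviated from their group means together, and a fit with the heading beginning as a term was made beside the unpaired one. With this term 5 of 6 receptor genes were called in Th17 cells (all but Il21r), against 37.8% of all genes (19.2% as higher and 18.6% as lower), and 5 of 6 in iTreg cells (all but Il7r), against 40.9% (20.9% as higher and 20% as lower). Of these, Il2rg was lower in both and Il21r lower in iTreg cells. The sources do not state that the headings pair the cultures, so the unpaired values come first and the others are given where they change a call.

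The shared chain, Il2rg, had the highest FPKM of the receptor genes in Th0 cells and was the only one of them with a lower mean in both polarized groups. In the Th17 table its values were 392, 371, 151, and 379 FPKM in the Th0 libraries (in the order M22, M29, M42, M43) and 262, 216, 97.8, and 248 FPKM in the Th17 libraries. The groups overlapped because M42_1 was far below the other Th0 libraries, and within each heading the Th17 library was lower, at 0.582 to 0.668 of the Th0 library. Mean FPKM was 206 ± 74.6 in Th17 and 323 ± 115 in Th0 cells (SD, n = 4 each). The log2 fold change of −0.65 (SE 0.39) was not called by limma without the heading term (adjusted p = 0.30), and was called with it (adjusted p = 0.0014). Without the Th17 library M42_5 it was −0.32 and without the Th0 library M42_1 it was −0.98, and neither was called. The study, which tested its RNA-seq counts in a pair-wise design, names Il2rg among molecules lower in Th17 cells in both mRNA and protein.

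In the iTreg table, Il2rg stood at 387, 368, 149, and 375 FPKM in the Th0 libraries and at 255, 239, 119, and 283 FPKM in the iTreg libraries. Again M42 was lowest in both groups, and each iTreg library was at 0.649 to 0.796 of the Th0 library with the same heading. Mean FPKM was 224 ± 72.4 in iTreg and 320 ± 114 in Th0 cells (SD, n = 4 each), and the log2 fold change was −0.49 (SE 0.37), with an adjusted p of 0.43 from limma, or of 0.0033 with the heading term. Without M42_4 it was −0.21 and without M42_1 it was −0.82, and neither was called. The M42 libraries also had the lowest Cd4 FPKM of each group, at 81.3 in Th0 (Th17 table), 33.8 in Th17, and 78.2 in iTreg cells, and the part of this in the values of Il2rg was not tested.

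Il2ra, the alpha chain that gives the IL2 receptor its high affinity, was higher in both polarized groups. The Th0 libraries of the Th17 table had 170, 80.7, 114, and 172 FPKM and the Th17 libraries 228, 218, 277, and 425 FPKM. Every Th17 library was above every Th0 library, with M43_5 the highest. Il2ra rose from 134 ± 44.5 to 287 ± 95.7 FPKM (SD, n = 4 each), a difference of 1.10 on the log2 scale (SE 0.29, adjusted p = 0.029 from limma). The call depended on single libraries. Without the Th0 library M29_1 the log2 fold change was 0.88 (adjusted p = 0.051 from limma), without M42_1 it was 1.05 (adjusted p = 0.074), and without the Th17 library M43_5 it was 0.90 (adjusted p = 0.065).

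For iTreg cells, which had been given IL2, Il2ra was at 478, 371, 337, and 583 FPKM, against 168, 80.0, 113, and 170 FPKM in the Th0 libraries of that table. The lowest iTreg library was above the highest Th0 library, and the ratio within a heading was 2.85 to 4.63. Il2ra rose from 133 ± 43.9 to 442 ± 112 FPKM (SD, n = 4 each), a difference of 1.76 on the log2 scale (SE 0.27, adjusted p = 0.0030 from limma). The call held with each library left out in turn, with log2 fold changes of 1.54 to 1.90.

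Il2rb, the signaling chain that IL2 and IL15 share, rose in both groups. Since the tables were scaled separately, Th17 cells were not tested directly against iTreg cells for this or any other gene. It had 92.5, 80.3, 64.4, and 99.5 FPKM in Th0 and 277, 264, 174, and 256 FPKM in Th17 libraries. The groups were well apart, with the lowest Th17 library, M42_5, above the highest Th0 library. The mean went from 84.2 ± 15.4 to 243 ± 46.8 FPKM (SD, n = 4 each), a difference of 1.51 on the log2 scale (SE 0.19, adjusted p = 0.00068 from limma).

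In the iTreg table Il2rb had 91.4, 79.5, 63.7, and 98.3 FPKM in Th0 and 219, 205, 160, and 276 FPKM in iTreg libraries. M42 was lowest and M43 highest in both groups, which did not overlap. The increase from 83.2 ± 15.2 to 215 ± 47.7 FPKM (SD, n = 4 each) gave a log2 fold change of 1.35 (SE 0.19, adjusted p = 0.0020 from limma). Ratios within a heading spanned 2.57 to 3.29 in Th17 and 2.40 to 2.80 in iTreg cells.

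Il4ra encodes the chain that binds IL4, and in another receptor takes part in the response to IL13. It stood at 30.7, 24.2, 13.9, and 40.3 FPKM in Th0 and at 132, 99.8, 64.1, and 151 FPKM in Th17 libraries, which had been cultured with an antibody to IL4. The groups did not overlap, and M42 was lowest and M43 highest in both. Il4ra rose from 27.3 ± 11.1 to 112 ± 38.3 FPKM (SD, n = 4 each), a difference of 2.02 on the log2 scale (SE 0.35, adjusted p = 0.0043 from limma). Although the libraries of a group differed by more than 2-fold, the ratio within a heading stayed between 3.75 and 4.61.

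In the iTreg table Il4ra was at 30.3, 24.0, 13.7, and 39.8 FPKM in Th0 and at 54.6, 54.6, 22.5, and 65.3 FPKM in iTreg libraries. The groups overlapped through M42_4, which was below 3 of the 4 Th0 libraries but above the Th0 library of its own heading. The means were 49.2 ± 18.5 and 27.0 ± 11.0 FPKM (SD, n = 4 each). The log2 fold change of 0.84 (SE 0.39) was not called by limma (adjusted p = 0.19), and was called with the heading term (adjusted p = 0.00088) or without M42_4 (log2 fold change 1.17, adjusted p = 0.046).

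Il7r, the alpha chain of the IL7 receptor, which also serves in the receptor for TSLP, had the lowest FPKM of the 6 genes in every group and the largest log2 fold change of the 6 in Th17 cells. It was at 6.78, 3.25, 3.44, and 5.00 FPKM in Th0 and at 25.8, 17.6, 37.3, and 41.97 FPKM in Th17 libraries. The groups were far apart, and the ratio within a heading varied from 3.81 in M22 to 10.9 in M42. Il7r rose from 4.62 ± 1.64 to 30.7 ± 11.0 FPKM (SD, n = 4 each), a difference of 2.47 on the log2 scale (SE 0.29, adjusted p = 0.00053 from limma). By mean FPKM it moved from rank 8237 to rank 2698 of the 11077 listed genes.

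For Il7r in iTreg cells no difference was called. The Th0 libraries of the iTreg table had 6.70, 3.22, 3.39, and 4.94 FPKM and the iTreg libraries 7.56, 8.58, 4.67, and 5.95 FPKM. The groups overlapped, and the ratio within a heading was 2.66 for M29 and 1.13 to 1.37 for the others. The means were 6.69 ± 1.73 and 4.57 ± 1.62 FPKM (SD, n = 4 each), and the log2 fold change of 0.48 (SE 0.23) was not called by limma (adjusted p = 0.20), nor with the heading term (adjusted p = 0.061).

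Il21r encodes the chain that binds IL21, a cytokine that Th17 cells are known to make. Its values were 68.2, 49.4, 54.1, and 92.7 FPKM in Th0 and 84.4, 57.5, 56.0, and 154 FPKM in Th17 libraries. The groups overlapped widely, and M43_5 was far above the other Th17 libraries. The means were 87.8 ± 45.7 and 66.1 ± 19.4 FPKM (SD, n = 4 each), and the log2 fold change of 0.32 (SE 0.33, adjusted p = 0.55 from limma) was 0.014 without M43_5.

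Il21r in the iTreg table was at 67.4, 49.0, 53.5, and 91.6 FPKM in Th0 and at 57.3, 44.4, 37.6, and 60.0 FPKM in iTreg libraries. The groups overlapped, while each iTreg library was below the Th0 library of its heading, with ratios of 0.655 to 0.907. The means were 49.8 ± 10.6 and 65.3 ± 19.2 FPKM (SD, n = 4 each). The log2 fold change of −0.37 (SE 0.22) was not called by limma (adjusted p = 0.32), and was called with the heading term (adjusted p = 0.022). The balance of the neighbors Il4ra and Il21r can be given within a library. Il4ra was at 0.257 to 0.490 of Il21r in Th0, at 0.985 to 1.74 in Th17, and at 0.598 to 1.23 in iTreg cells, a ratio chosen after its values were seen and given without a test.

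**Figure D2:**
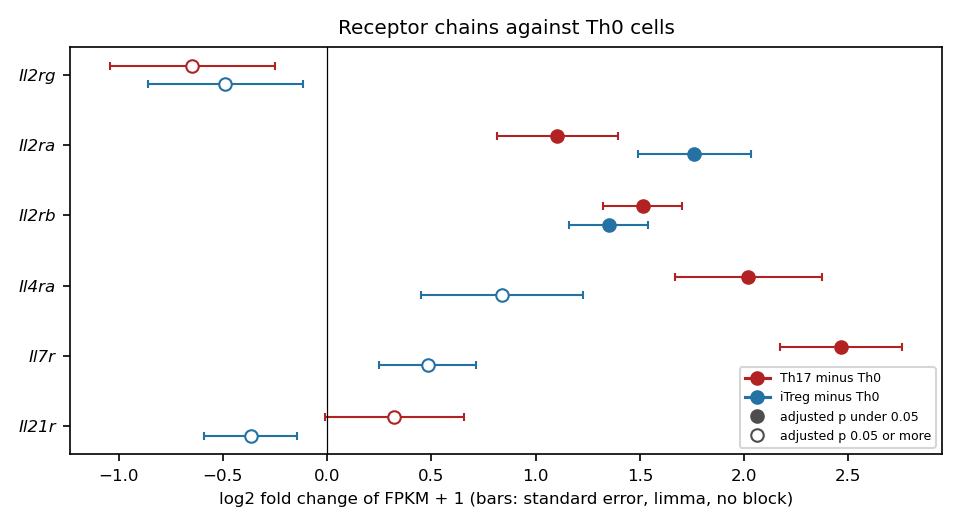
Log2 fold change (on log2(FPKM + 1)) of the 6 receptor genes against Th0 cells, for Th17 and iTreg cells, with standard errors from limma as bars. Il7r (2.47 and 0.48) and Il4ra (2.02 and 0.84) lie farthest above 0 on the Th17 side, Il2ra (1.10 and 1.76) on the iTreg side, and Il2rg is below 0 on both.

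The order of the chains by FPKM, which is scaled to transcript length, differed between the groups. The calculation of FPKM is not given, and Gm20489 covers 30.5% of the exonic bases of Il2rg. The level of Il2rg against the other chains is therefore uncertain. In Th0 cells the order of the mean FPKM was Il2rg, Il2ra, Il2rb, Il21r, Il4ra, and Il7r, and all 4 libraries had the same order. The ranges of neighbors in this order overlapped down to Il21r, and those of Il21r and Il4ra, and of Il4ra and Il7r, did not.

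In Th17 cells the order was Il2ra, Il2rb, Il2rg, Il4ra, Il21r, and Il7r. The ranges of the first 5 genes overlapped from each to the next, while Il2ra and Il2rb both lay above Il4ra and Il21r without overlap, and Il7r lay below Il21r without overlap. Il2rb was above Il2rg in 4 of 4 Th17 libraries, while Il2ra was above Il2rb in only 2 of 4. In iTreg cells Il2ra was first and its range lay above that of Il2rg. Il2rg and Il2rb, at 224 and 215 FPKM, overlapped and did not differ beyond their spread, nor did Il21r and Il4ra, at 49.8 and 49.2 FPKM. Il7r was last, below Il4ra without overlap.

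The balance of private to shared chain was examined as the ratio of their FPKM within a library, in which a scaling factor of the library cancels, so that the Th0 ratios are the same in both tables. These are ratios of mRNA, not of receptor protein, and their levels carry the uncertainty of the exonic bases that Il2rg shares with Gm20489. In all, 12 ratios were compared with Th0 cells (6 in each comparison) with two-sided exact permutation tests of 4 libraries against 4, for which the smallest p is 0.029 (here 0.049 after Benjamini-Hochberg adjustment over the 12). The adjusted value depends on how many of the 12 reach the smallest p together. All of them share the Th0 libraries and most share Il2rg, so they are not independent.

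Il2ra was at 0.424 of Il2rg in Th0 cells (geometric mean, with a range of 0.217 to 0.759), at 1.44 in Th17 cells (0.870 to 2.84), and at 2.03 in iTreg cells (1.55 to 2.84). Neither polarized group overlapped Th0, with ratios 3.39-fold and 4.79-fold higher (exact permutation test, p = 0.029 and adjusted p = 0.049 for each). Il2rb was at 0.275 of Il2rg in Th0 (0.216 to 0.427), at 1.24 in Th17 (1.03 to 1.78), and at 0.993 in iTreg cells (0.858 to 1.35). These ratios were 4.51-fold and 3.61-fold higher than in Th0 cells, again without overlap (exact permutation test, p = 0.029 and adjusted p = 0.049 for each).

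Il4ra was at 0.0841 of Il2rg in Th0 (0.0652 to 0.106), at 0.553 in Th17 (0.462 to 0.655), and at 0.215 in iTreg cells (0.190 to 0.231). Both groups lay above Th0 without overlap, by 6.57-fold and 2.56-fold (exact permutation test, p = 0.029 and adjusted p = 0.049 for each), including iTreg cells, in which the FPKM of Il4ra itself overlapped with Th0. M42_4, low in both genes, had the lowest ratio of the iTreg libraries, at 0.190, and was still above every Th0 library.

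For Il7r the ratio to Il2rg was 0.0146 in Th0 (0.00876 to 0.0228) and 0.151 in Th17 cells (0.0816 to 0.382), 10.3-fold higher and without overlap (exact permutation test, p = 0.029, adjusted p = 0.049). In iTreg cells it was 0.0307 (0.0211 to 0.0394) and overlapped with Th0 (exact permutation test, p = 0.057, adjusted p = 0.076), although it was higher within 4 of 4 headings. The ratio of Il21r to Il2rg was 0.212 in Th0 (0.133 to 0.359), 0.417 in Th17 (0.266 to 0.619), and 0.230 in iTreg cells (0.186 to 0.317). It overlapped with Th0 in both (exact permutation test, p = 0.114 and p = 0.8, adjusted p = 0.137 and 0.8), and was higher within 4 of 4 headings in Th17 and 2 of 4 in iTreg cells.

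The ratio of the IL2 receptor chains to each other, Il2ra over Il2rb, was 1.54 in Th0 (1.01 to 1.84), 1.16 in Th17 (0.823 to 1.66), and 2.05 in iTreg cells (1.80 to 2.19). Neither difference from Th0 passed the test (exact permutation test, p = 0.171 and p = 0.057, adjusted p = 0.187 and 0.076). Within a heading it was lower in 4 of 4 Th17 libraries and higher in 4 of 4 iTreg libraries, and these unpaired tests do not take the headings into account.

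**Figure D3:**
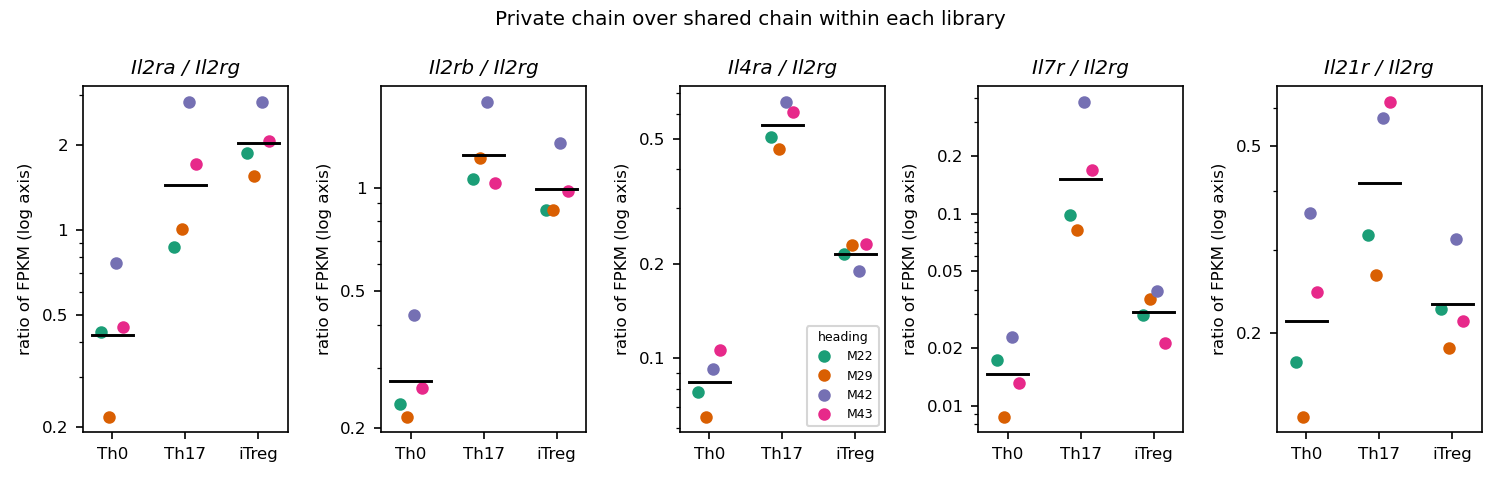
FPKM of each private chain divided by that of Il2rg in the same library (log axis), one point per library, colored by the beginning of the heading, with bars at geometric means. Th17 and iTreg libraries lie above all Th0 libraries for Il2ra, Il2rb, and Il4ra, Th17 libraries alone do so for Il7r, and neither does for Il21r.

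Further genes of the pathway were taken from a list of 44 ligands, partner chains, kinases, STATs, adaptors, target genes, and regulators of Il7r or Il2ra transcription, of which 37 were tested in each comparison. In Th17 cells 11 were higher, 6 were lower, and 20 were not called (45.9% called, beside 19.3% of all genes), with a median log2 fold change of 0.0036. In iTreg cells 14 were higher, 5 were lower, and 18 were not called (51.4%, beside 16.6%), with a median of 0.096. These counts include genes above 1 FPKM in the libraries of a single group, which passed the filter through that group and therefore had to differ (Il21 and Gzmb in the Th17 table, Il9 and Gzmb in the iTreg table), and for these the levels are given without a test. The genes named in the following are the 3 most raised and 3 most lowered called genes of each comparison, and others are said to be chosen after their values were seen.

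Of the 6 ligands, Il4, Il7, and Il15 were in neither table. Il2, the autocrine growth factor of activated T cells, was lower in both groups. It fell from 38.1 ± 15.6 to 4.05 ± 1.18 FPKM (SD, n = 4 each) in Th17 cells (log2 fold change −2.88, adjusted p = 0.00030 from limma), and from 37.6 ± 15.4 to 2.43 ± 1.21 FPKM in iTreg cells (log2 fold change −3.47, adjusted p = 0.00035 from limma). Il21 was listed only in the Th17 table, where it was at 65.9 to 94.1 FPKM in Th17 and at no more than 0.136 FPKM in Th0 libraries. Il9 was listed only in the iTreg table, at 13.97 to 74.6 FPKM in iTreg and at no more than 0.790 FPKM in Th0 libraries. Of the receptor chains for these cytokines, Il21r was not called in Th17 cells and Il9r was not listed.

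Among STATs, the transcription factors that the receptors activate, Stat5b, chosen after its values were seen, rose from 38.8 ± 2.58 to 73.1 ± 6.35 FPKM in Th17 cells (SD, n = 4 each; adjusted p = 0.00045 from limma) and from 38.4 ± 2.60 to 78.8 ± 3.32 FPKM in iTreg cells (adjusted p = 0.00016). Stat3 and Stat5a were chosen in the same way. The log2 fold change of Stat3 was 1.62 in Th17 and 0.65 in iTreg cells (adjusted p = 1.1e-05 and 0.0011 from limma). Stat5a was called as higher in iTreg cells (log2 fold change 1.10, adjusted p = 0.0046 from limma). In Th17 cells Stat5a was called only with the heading term (log2 fold change 0.61, adjusted p = 0.096 without it and 0.0065 with it). Of 3 kinases, Jak3, which binds the shared chain, was called as higher in Th17 cells (65.6 ± 11.7 to 125 ± 17.2 FPKM, SD, n = 4 each; adjusted p = 0.0033 from limma) and was not called in iTreg cells without the heading term (64.9 ± 11.6 FPKM in Th0 and 51.1 ± 6.06 FPKM in iTreg, log2 fold change −0.33, adjusted p = 0.17), but was called as lower with it (adjusted p = 0.025). The partner chain Il15ra, which presents IL15, fell in both, to 1.28 FPKM from 4.17 FPKM in Th17 and to 1.69 FPKM from 4.12 FPKM in iTreg cells (adjusted p = 0.00059 and 0.0064 from limma). Jak3 and Il15ra were chosen after their values were seen.

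Of 16 tested feedback or STAT5 target genes, 2 were higher and 3 lower in Th17 cells, and 7 were higher and 2 lower in iTreg cells (over all tested genes 10.6% were higher and 8.69% lower in Th17 cells, and 8.36% and 8.21% in iTreg cells). Socs3, an inhibitor of cytokine signaling induced by STAT3, rose in Th17 cells from 2.93 ± 0.376 to 72.9 ± 38.7 FPKM (SD, n = 4 each; log2 fold change 4.12, adjusted p = 3.4e-05 from limma). For Socs3 the library M43_5 was at 131 FPKM and the other Th17 libraries at 52.5 to 55.7 FPKM. Socs2, a feedback inhibitor induced by STAT5, rose in iTreg cells from 14.9 ± 6.61 to 151 ± 36.6 FPKM (SD, n = 4 each; log2 fold change 3.31, adjusted p = 0.00016 from limma), and the cytokine gene Lta from 50.5 ± 24.6 to 290 ± 65.7 FPKM (log2 fold change 2.58, adjusted p = 0.00094). Cish, another STAT5-induced inhibitor, chosen after its values were seen, was at 206 to 232 FPKM in iTreg and 27.9 to 75.9 FPKM in Th0 libraries (log2 fold change 1.90, adjusted p = 0.0030 from limma), and was not called in Th17 cells without the heading term (10.2 to 62.7 FPKM, log2 fold change −1.04, adjusted p = 0.22), but was called with it (adjusted p = 0.017).

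Gzmb, which encodes the cytotoxic protease granzyme B, was at 3.44 to 15.96 FPKM in Th0 libraries (Th17 table), at no more than 0.173 FPKM in Th17 libraries, and at no more than 0.631 FPKM in iTreg libraries. Bcl2, a survival gene, fell in Th17 cells from 26.6 ± 1.55 to 10.6 ± 6.65 FPKM (SD, n = 4 each; log2 fold change −1.39, adjusted p = 0.013 from limma). For Bcl2 the library M43_5 was at 20.5 FPKM, near the 24.7 FPKM of M43_1, with the other Th17 libraries at 5.95 to 8.06 FPKM.

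Of 7 regulators of Il7r or Il2ra transcription, 4 were higher and 1 lower in Th17 cells, and 2 were higher and 1 lower in iTreg cells, beside the same shares of all genes (10.6% and 8.69%, and 8.36% and 8.21%). Foxo1, which is known to activate Il7r in T cells, rose in Th17 cells from 22.4 ± 1.04 to 86.3 ± 5.91 FPKM (SD, n = 4 each; log2 fold change 1.90, adjusted p = 6.1e-06 from limma). In iTreg cells it was at 45.4 to 52.8 FPKM against 20.8 to 23.2 FPKM in Th0 libraries (log2 fold change 1.11, adjusted p = 9.4e-05 from limma). Gfi1, a repressor of Il7r, fell in iTreg cells from 22.05 ± 5.89 to 4.42 ± 2.11 FPKM (SD, n = 4 each; log2 fold change −2.13, adjusted p = 0.0011 from limma) and was at 8.28 FPKM in Th17 against 22.3 FPKM in Th0 cells (log2 fold change −1.30, adjusted p = 0.0013). Foxo1 was higher and Gfi1 lower in both groups. The rest of the 7 regulators are given after their values were seen. Runx1 was called as higher in Th17 and iTreg cells (log2 fold changes 1.44 and 1.04, adjusted p = 0.00016 and 0.0011 from limma). Klf2 and Gabpa were called in neither group without the heading term. With it Klf2 was called as higher in Th17 cells (log2 fold change 1.24, adjusted p = 0.020). Runx3 and Ets1 were called as higher in Th17 cells (log2 fold changes 1.20 and 0.70, adjusted p = 0.0019 and 0.032 from limma). In iTreg cells neither was called (−0.14 and 0.32, adjusted p = 0.64 and 0.19 from limma), but Ets1 was with the heading term (adjusted p = 0.011). The difference between Th17 and iTreg cells was not tested, nor was the part of these regulators in the values of Il7r.

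**Figure D4:**
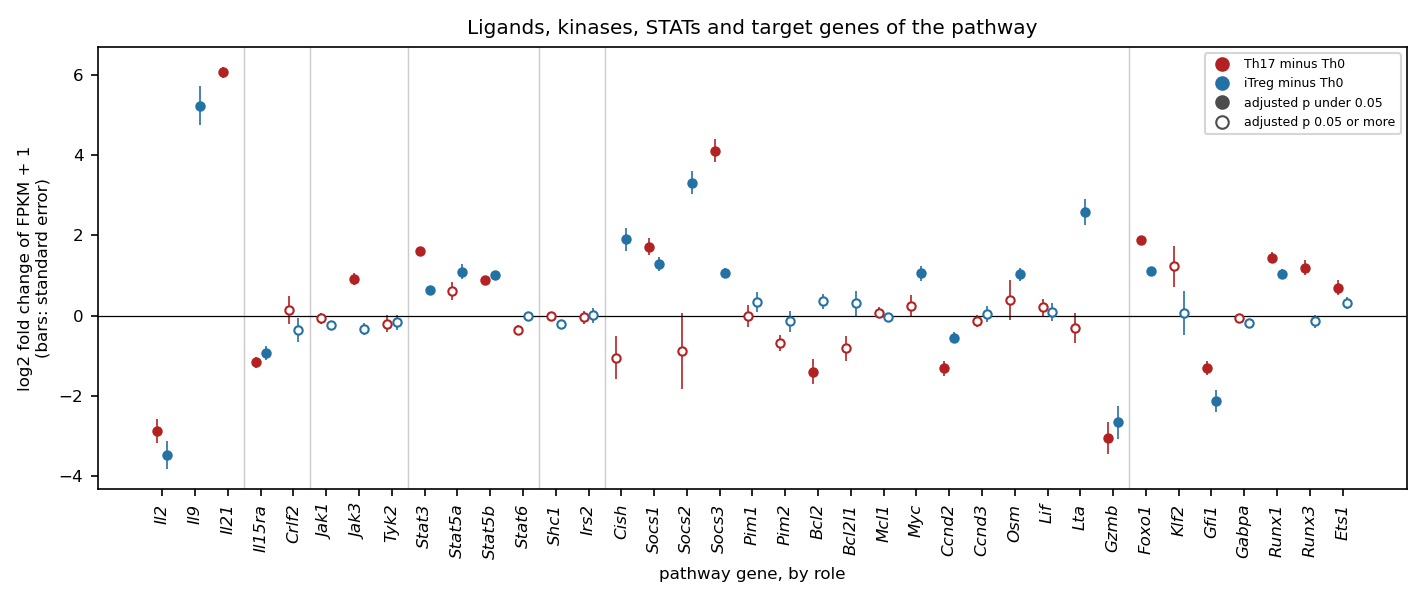
Log2 fold change (on log2(FPKM + 1), with standard errors from limma) of pathway genes against Th0 cells, ordered by role from ligands to regulators, for Th17 and iTreg cells, with filled points for an adjusted p under 0.05. Il2 and Gzmb are below 0 in both comparisons (Il21, Il9, and Gzmb passed the filter through a single group), Il21 and Socs3 stand highest in Th17 cells (6.07 and 4.12), and Il9 and Socs2 in iTreg cells (5.23 and 3.31).

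The labels were checked against marker genes. Il17f was at 281 to 788 FPKM in Th17 libraries and at most 0.184 FPKM in Th0 libraries, and Foxp3, the defining factor of regulatory T cells, was at 62.0 to 91.7 FPKM in iTreg and 2.01 to 7.15 FPKM in Th0 libraries. M43_5 stood apart from the other Th17 libraries, with 42.5 FPKM of Foxp3 against at most 4.50 FPKM and 54.7 FPKM of Socs2 against at most 12.9 FPKM, and it also had the highest Il2ra, Il4ra, Il7r, and Il21r of the Th17 libraries. Without M43_5 the log2 fold changes in Th17 cells stayed positive for Il2rb, Il4ra, and Il7r, and all 3 were still called. Il2ra lost its call without this library (0.90, adjusted p = 0.065 from limma), and Il21r, not called with all libraries, was at 0.014. Of 5 T cell markers, 4 were listed (Trac was not), and their summed FPKM was 668 to 1463 in Th0, 443 to 836 in Th17, and 559 to 827 in iTreg libraries. Of these markers, Cd4 was called as lower in Th17 cells (208 to 68.1 FPKM, log2 fold change −1.54, adjusted p = 0.038 from limma). Cd4 was not called in iTreg cells (log2 fold change −0.32, adjusted p = 0.68). Cd3e, Cd3d, and Cd3g were called in neither without the heading term. With it Cd3d and Cd3g were called as lower in both groups and Cd3e in iTreg cells. Of 2 CD8 T cell markers only Cd8b1 was listed (2.19 to 6.60 FPKM), of 4 B cell markers only Cd79a (0.505 to 3.84 FPKM), and NK and erythroid markers were not listed. Itgam and Xcr1, of the myeloid and dendritic markers, were at most 0.640 FPKM, and the part of other cells in the receptor values was not tested. Relative to the median library of each table, depth read from the steps of low FPKM values was 0.843 to 1.08 in the Th17 table and 0.825 to 1.19 in the iTreg table, and since total counts are not in the tables, no counting intervals were calculated.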

How the data were processed

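RNA-seq of 12 libraries (4 each of Th0, Th17, and iTreg cells, from separate cultures by the study's methods) was used as deposited. By those methods and the submitters' processing notes, the authors mapped reads with TopHat2 2.0.14 to mm10, counted them on exons with HTSeq without strand, kept genes above 1 CPM in at least 4 samples, and tested them with edgeR. The authors deposited 2 tables of FPKM, one per comparison, scaled separately: the FPKM of the shared Th0 libraries differ between them by a constant factor per library, of 1.009 to 1.012. The calculation of FPKM and the annotation are not given in the sources used here. Columns of the authors' own comparison (log2 fold change, log CPM, likelihood ratio, p-value, FDR) were not used.

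A gene was tested if it exceeded 1 FPKM in 4 or more of a table's 8 libraries. limma 3.58.1 (R 4.3.3) was fitted to log2(FPKM + 1) within each table, unpaired, with Benjamini-Hochberg adjustment at 0.05, after tests on simulated data. Ratios were compared with exact permutation tests (Python 3.11.15, scipy 1.17.1). The study's pair-wise design was not the main fit because headings show no experiment number. Headings that begin alike had correlated deviations (r across genes, 0.450 to 0.784 in the Th17 and 0.662 to 0.769 in the iTreg table, over 4 pairs each), against −0.590 to 0.434 and −0.576 to 0.248 for other pairs, so a fit with the replicate block is given where it changes a call. Alternatives were another pseudocount, filter, scaling, threshold, and each library left out. Receptor genes and lists were chosen with earlier results of these data known. All 7 receptor genes are described, and of the pathway list the 3 most raised and 3 most lowered called genes per comparison. Positions are from GENCODE M21, and sequences from RefSeq. Il7r has a RefSeq entry that is not printed, because its window lies inside the annotated gene. A single gene of the pathway list is counted in its totals but is not reported here.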

Additional observations from a re-analysis of the deposited data

Results flagged for a closer look

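On the log2(FPKM + 1) scale, in 3 of 18 groups of 4 libraries, the lowest library lay far from the others, with a gap to its nearest neighbor that took up more of the group's range than Dixon's critical value for 4 samples (chance alone marks about 1 in 20 groups). Il2rg was at 151 FPKM in the Th0 library M42_1, a gap of 0.943 of the range on the log2 scale and 0.914 in FPKM, with the other Th0 libraries at 371 to 391.9 FPKM. Il2rb was at 174 FPKM in the Th17 library M42_5 (0.831 of the range on the log2 scale and 0.797 in FPKM), with the others at 256 to 277 FPKM. Il4ra was at 22.5 FPKM in the iTreg library M42_4 (0.831 on the log2 scale and 0.7504 in FPKM), with the others at 54.6 to 65.3 FPKM. In FPKM, the gap of Il2rg alone is above the critical value. All 3 are libraries whose heading begins with M42. Their Il2rb and Il4ra values were nonetheless above those of the Th0 library with the same heading, by 2.70-fold for Il2rb in Th17 and 1.64-fold for Il4ra in iTreg cells.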

How the results depend on the processing

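With the replicate block (heading beginning as a term), 3882 genes were called in Th17 and 4170 in iTreg cells, against 1983 and 1691 without it, and the pairing added calls by limma for Il2rg in Th17 (log2 fold change −0.65, adjusted p = 0.0014) and in iTreg cells (−0.49, adjusted p = 0.0033), and in iTreg cells for Il4ra (0.84, adjusted p = 0.00088) and Il21r (−0.37, adjusted p = 0.022). It changed no other call of a receptor gene. At a threshold of 0.01 there were 995 and 778 genes, and Il2ra in Th17 cells (1.10, adjusted p = 0.029) was no longer called. With single libraries left out, the log2 fold change of Il2ra in Th17 cells was 0.88 to 1.24 and lost its call without M29_1, M42_1, or M43_5, and that of Il4ra in iTreg cells was 0.56 to 1.17 and gained a call without M42_4. The other alternatives for all tested genes, receptor genes, lists, and ratios were rated as the same in 117 cases with all libraries and 218 with a library left out. The same means an unchanged direction and side of the threshold, or a count within 1.5 times. For ratios with a library left out no test was run, so these cases say nothing about a threshold. The direction of the log2 ratio of Il21r to Il2rg in iTreg cells, 0.12 with all libraries and not past the test, was reversed without M42_4 (−0.036) and without M29_1 (−0.11), and ranged from −0.11 to 0.37 with single libraries left out. Counting error is unknown without counts, and p-values for 4 against 4 libraries cannot fall below 0.029 in the exact tests.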

Other observations

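The genes whose FPKM ran most alike with each receptor gene were sought among 10079 genes tested in both tables, by the lower of the Pearson correlations over the 8 libraries of each table, given as a description since the libraries share groups and headings. They were Elovl5 (0.975), Serinc3 (0.970), and Naglu (0.969) for Il2rg, Ptprj (0.966), Tulp3 (0.954), and Tm2d2 (0.950) for Il2ra, and Cpd (0.980), Atp2b4 (0.979), and Tgfbr1 (0.978) for Il2rb. For Il4ra they were Tor2a (0.953), Slc39a14 (0.945), and Lrig1 (0.941), for Il7r Bcl3 (0.904), Spef2 (0.895), and Asxl1 (0.885), and for Il21r Ccser2 (0.839), Ckap4 (0.788), and Atp10a (0.783).

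After the group means were taken out, Il2rg, Il2rb, and Il4ra still varied together over the libraries. The correlation over the 8 libraries was 0.940 in the Th17 and 0.892 in the iTreg table for Il2rg with Il2rb, and 0.913 and 0.936 for Il2rg with Il4ra, with the M42 libraries low in all 3 genes. These 3 genes were chosen after the values were seen. Pairs that include another receptor gene ranged from −0.0048 (Il2rb with Il7r, Th17 table) to 0.899 (Il2ra with Il21r, iTreg table). Il2ra with Il21r was at 0.788 in the Th17 table.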
